A study of Sus scrofa with 16 samples.

Results

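The liver transcripts examined here code for 10 proteins of the urea cycle and of ammonia handling, taken as a list of names: CPS1, OTC, ASS1, ASL, ARG1, NAGS, SLC25A15, SLC25A13, GLUD1 and GLS2. The list was chosen with earlier results of these data known. All 10 were among the 25880 genes listed in the count files. The livers came from 16 crossbred pigs, whose dams were Polish Landrace x Polish Large White sows and whose sires were Duroc x Pietrain boars. The pigs were fattened from about 60 to 118 kg of body weight on diets of similar energy and protein content that differed in the added fat. Group R received rapeseed oil (5 pigs, 3 gilts and 2 barrows), group B beef tallow (5 pigs, 2 gilts and 3 barrows) and group C coconut oil (6 pigs, 3 gilts and 3 barrows). No group went without added fat, so each difference below is between fats.

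The urea cycle turns ammonia, the toxic product of amino acid breakdown, into urea, and the liver is the organ that runs it in full. Inside the mitochondrion CPS1 joins ammonia and bicarbonate to carbamoyl phosphate, for which it needs N-acetylglutamate made by NAGS, and OTC passes the carbamoyl group to ornithine to form citrulline. In the cytosol ASS1 and ASL convert citrulline with aspartate to arginine, and ARG1 splits arginine into urea and ornithine, which SLC25A15 carries back into the mitochondrion in exchange for citrulline. SLC25A13 exports aspartate to the cytosol, and GLUD1 and GLS2 release ammonia from glutamate and glutamine.

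Beef tallow and rapeseed oil gave the clearest contrast. GLUD1 fell in group B, to 0.57 times its level in group R, and every pig of group B was below every pig of group R. It passed the test across all genes in the main edgeR fit (adjusted p = 0.0426), but not in 8 of 10 fits with 1 pig left out. CPS1 lay on the other side, at 1.78 times its level in group R with every pig of group B above every pig of group R, but it did not pass the test across all genes in the main edgeR fit (adjusted p = 0.0627). OTC, the next enzyme after CPS1, was lower in every pig of group B, at 0.71 times the level in group R (edgeR adjusted p = 0.142). Of the 8 members that could be tested, 5 had a positive and 3 a negative log2 fold change in this comparison.

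Sequencing was 3′ counting, in which a read comes from the end of a transcript, so a count depends on where the annotation places that end and levels are compared between pigs and not between genes. Reads assigned to genes ranged from 705669 to 1767671 per pig, and the medians were 1009449 with rapeseed oil, 983963 with beef tallow and 1183818 with coconut oil. Levels are given as CPM, the count of a gene scaled to 1000000 reads, after normalization by the trimmed mean of M-values (TMM) over all 16 pigs, called normalized counts here. The liver label was checked against 9 hepatocyte genes, of which albumin (ALB) had the highest counts, with 27364 to 152249 normalized counts per pig. SERPINA1, also among the 9, had only 0 to 3 reads per pig. A gene called the most abundant of its list below is the one with the highest counts, which does not rank the transcripts themselves.

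Pig 3 of group B stood apart from the other libraries. ALB was at 27364 normalized counts there and at 61651 or more in each of the other 15 pigs. The 9 hepatocyte genes, with ALB included, summed to 88251 against 129211 to 228162 elsewhere. They were not low as a set. TF and APOA1 had their highest values of group B in this pig, at 23412 and 8559. FGB, AHSG and APOB had their lowest values of group B there, at 13354, 8654 and 2769. The same library held 1698 normalized counts of 8 Kupffer cell genes, the macrophages of the liver, against 614 to 1161 in the others. Reads with several alignments made up 33.2% of its mapped reads, within the range of 15.4% to 38.1% over the 16 pigs. In bulk liver, fewer cells of a type and less RNA per cell cannot be told apart.

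By edgeR with a Benjamini-Hochberg adjusted p below 0.05 as the threshold, 1 of the 8 members that passed the filter on low counts was called for beef tallow against rapeseed oil, GLUD1, which was lower in group B. Over all 6318 genes tested in that comparison 70 were called, or 1.11%. At an unadjusted p below 0.05, 5 of the 8 passed (CPS1, SLC25A15 and ARG1 higher in group B, GLUD1 and OTC lower), against 15% of all genes. DESeq2 called 4 of the 8 (CPS1, OTC, SLC25A15 and GLUD1) and 3.24% of the genes to which it gave an adjusted p. The pigs of both groups did not overlap for 3 of the 8, with CPS1 above and OTC and GLUD1 below, and for 4.57% of all genes tested. The median log2 fold change was 0.23 over the 8 members and 0.01 over all genes tested. Because the members were chosen with earlier results of these data known, the counts of members here and below are no independent test of the list.

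For coconut oil against rapeseed oil, edgeR called 0 of 8 members and 9 of 6528 genes (0.138%). At an unadjusted p below 0.05, 4 of the 8 passed, SLC25A15 and ARG1 higher in group C and OTC and GLUD1 lower, against 13% of all genes. DESeq2 called 0 of the 8 and 2.61% of its genes, and the groups overlapped for each of the 8, with 1.46% of all genes free of overlap. For coconut oil against beef tallow, edgeR called 0 of 8 and 4 of 6812 genes (0.0587%). There CPS1 was the 1 member with an unadjusted p below 0.05, the 1 member called by DESeq2 and the 1 member whose groups did not overlap, lower in group C each time. The shares over all genes were 11.5% at the unadjusted threshold, 2.46% by DESeq2 and 1.45% without overlap. Each diet enters 2 of the 3 comparisons, so the sets of values share pigs and are not independent of each other.

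**Figure D1:**
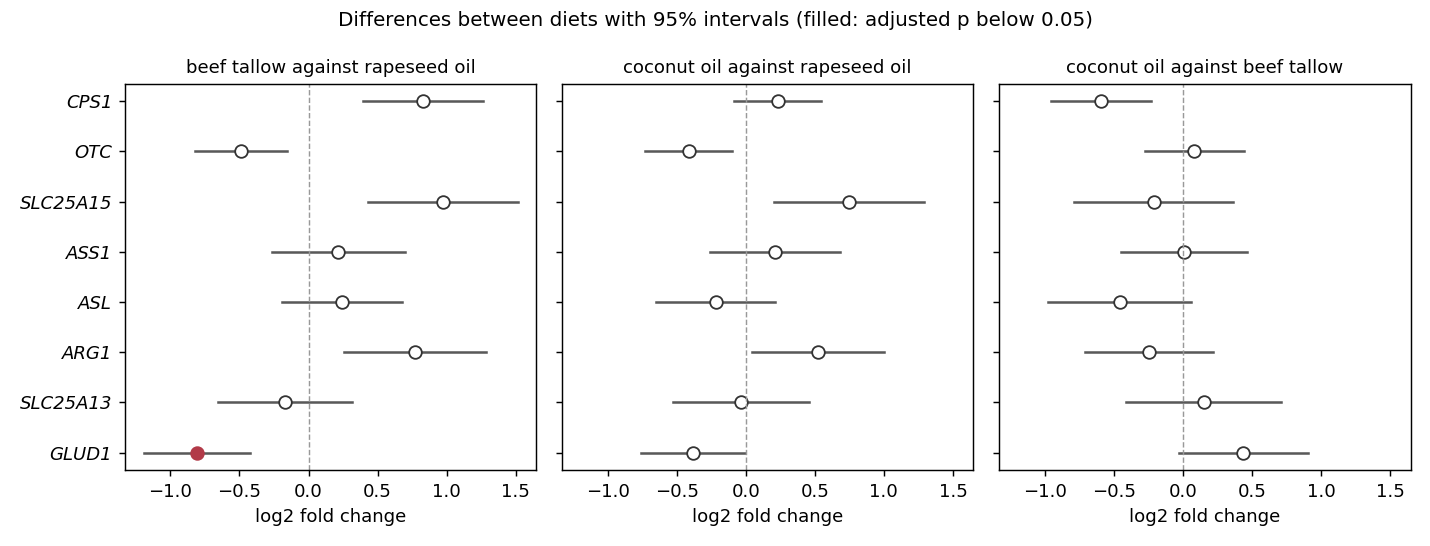
Log2 fold changes of the 8 tested genes (points) with 95% intervals (lines) in each comparison of diets, from edgeR; the filled point marks an adjusted p below 0.05. GLUD1 at -0.81 for beef tallow against rapeseed oil is the single filled point, and CPS1 at 0.83 lies opposite to it.

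CPS1 (ENSSSCG00000016159; Sscrofa11.1, chromosome 15 from 113210038 to 113339086) is the entry step of the cycle. It had 212, 271, 261, 273 and 167 normalized counts in the 5 pigs of group R and 339, 398, 622, 353 and 387 in those of group B. In group C the lowest, median and highest values were 253, 270 and 309. All 5 pigs of group B therefore lay above all 11 pigs of the other groups, while group C overlapped the upper part of group R and 2 of its 6 pigs exceeded every pig of group R. Mean CPS1 was 237 ± 46.2 with rapeseed oil (SD, n = 5), 420 ± 115 with beef tallow (n = 5) and 278 ± 21.7 with coconut oil (n = 6).

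The log2 fold change of CPS1 for beef tallow against rapeseed oil was 0.83 (standard error, SE, 0.20, 95% interval 0.39 to 1.26, edgeR adjusted p = 0.0627). Coconut oil against beef tallow gave -0.59 (SE 0.17, edgeR adjusted p = 0.235), with 6 of 6 pigs of group C below every pig of group B. Coconut oil against rapeseed oil gave 0.23 (SE 0.15, 95% interval -0.08 to 0.54, edgeR adjusted p = 0.545). Without pig 3 of group B the first of these was 0.64 (edgeR adjusted p = 0.0547) and the second -0.41 (edgeR adjusted p = 0.302). Leaving out the highest pig of group B cannot make it overlap groups R and C, so the lack of overlap was not tested by that fit. DESeq2 put the first at an adjusted p of 0.00913 and the second at 0.0375.

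OTC (ENSSSCG00000012236; X chromosome from 34322398 to 34391711) uses the product of CPS1. It was measured at 436, 446, 469, 519 and 449 normalized counts in group R and at 351, 336, 249, 359 and 359 in group B, with a lowest, median and highest value of 279, 337 and 439 in group C. Every pig of group B was below every pig of group R, and 5 of the 6 pigs of group C were too. Groups B and C overlapped. The log2 fold change was -0.49 for beef tallow against rapeseed oil (SE 0.16, 95% interval -0.82 to -0.15, edgeR adjusted p = 0.142) and -0.41 for coconut oil against rapeseed oil (SE 0.15, 95% interval -0.73 to -0.10, edgeR adjusted p = 0.261). By DESeq2 the first had an adjusted p of 0.0335. Without pig 3 of group B, which had the lowest value of all 16 pigs, the first was -0.40 (edgeR adjusted p = 0.145). OTC thus differed from CPS1 in direction for both comparisons with group R, although neither gene passed in the main edgeR fits.

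SLC25A15 (ENSSSCG00000009373; chromosome 11 from 15494176 to 15551172), the mitochondrial ornithine carrier, had the largest log2 fold change of the 8 tested members for beef tallow against rapeseed oil, at 0.97 (SE 0.26, 95% interval 0.43 to 1.51, edgeR adjusted p = 0.0796). Its normalized counts were 388, 304, 186, 217 and 217 in group R and 440, 697, 350, 367 and 729 in group B, and the lowest, median and highest values in group C were 247, 380 and 700. All 5 pigs of group B and all 6 of group C were above the median of group R, but pig 1 of group R overlapped both groups. Groups B and C were each spread over a wide range: barrows 2 and 5 of group B and pigs 5 and 6 of group C were at 624 or more, and their other pigs were at 440 or less. Pigs 5 and 6 of group C also had the deepest libraries of the 16, at 1659936 and 1767671 reads, and the part of depth in their values was not tested. Coconut oil against rapeseed oil gave 0.75 (SE 0.26, edgeR adjusted p = 0.232) and coconut oil against beef tallow -0.21 (95% interval -0.79 to 0.37, edgeR adjusted p = 0.801).

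Of the cytosolic steps, ARG1 (ENSSSCG00000004195; chromosome 1 from 32006035 to 32028983), which releases urea, was the one with an interval away from 0. Group R had 1055, 1301, 1480, 1171 and 582 normalized counts, group B 2369, 1817, 1212, 2395 and 1744, and group C a lowest, median and highest value of 1099, 1470 and 2298. The pigs of group B were above those of group R except for pig 3 of group B, which lay within the range of group R. The log2 fold change was 0.77 for beef tallow against rapeseed oil (SE 0.24, 95% interval 0.26 to 1.28, edgeR adjusted p = 0.135) and 0.52 for coconut oil against rapeseed oil (SE 0.23, edgeR adjusted p = 0.334). Groups B and C overlapped, at -0.24 (95% interval -0.71 to 0.22).

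Leaving out pig 3 of group B moved ARG1 and SLC25A15 past the threshold for beef tallow against rapeseed oil. ARG1 was then at 0.90 (edgeR adjusted p = 0.0405) and SLC25A15 at 1.08 (edgeR adjusted p = 0.0308), while GLUD1 was still past it at -0.74 (edgeR adjusted p = 0.0338). Members called rose from 1 to 3 of 8 in that fit, and genes called from 70 to 149. This was the 1 fit of 10 with 1 pig left out in which ARG1 or SLC25A15 was called. ARG1 ranged from 0.61 (without pig 5 of group R) to 0.90 and SLC25A15 from 0.82 (without pig 5 of group B) to 1.16 (without pig 1 of group R) over these fits, with adjusted p-values by edgeR of up to 0.248 and 0.209.

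ASS1 (ENSSSCG00000005701; chromosome 1 from 270531434 to 270586364) and ASL (ENSSSCG00000007738; chromosome 3 from 16637481 to 16646869) are the consecutive enzymes that build arginine. ASS1 ranged from 2803 to 6084 normalized counts with rapeseed oil, from 3573 to 6489 with beef tallow and from 3130 to 6806 with coconut oil, so that the 3 groups covered nearly the same range. Its log2 fold change against rapeseed oil was 0.22 for beef tallow (95% interval -0.27 to 0.70) and 0.21 for coconut oil (95% interval -0.26 to 0.68), with edgeR adjusted p-values of 0.704 and 0.755. With 1 pig left out the first ran from 0.06 (without pig 5 of group B) to 0.42 (without pig 1 of group R), and the second from 0.07 (without pig 1 of group C) to 0.42 (without pig 1 of group R). Between the groups fed coconut oil and beef tallow ASS1 was at 0.01 (95% interval -0.45 to 0.46).

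ASL was counted with 20 to 193 reads per pig, the second lowest depth among the tested members. It ranged from 64.9 to 82.1 normalized counts in group R, from 58.4 to 127 in group B and from 30.8 to 95.5 in group C. Pig 3 of group B was the highest and pig 3 of group C, the pig with the fewest reads, the lowest. Coconut oil against beef tallow gave -0.46 on the log2 scale (95% interval -0.97 to 0.06, edgeR adjusted p = 0.484), and without pig 3 of group B it was -0.28. Against rapeseed oil, ASL was at 0.24 for beef tallow and -0.22 for coconut oil, both with intervals that include 0; the first was 0.07 without pig 3 of group B and the second -0.09 without pig 3 of group C.

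SLC25A13 (ENSSSCG00000015336; chromosome 9 from 75781421 to 75980606), the aspartate and glutamate carrier also called citrin, had 22 to 81 reads per pig. Its normalized counts ranged from 28.4 to 47.4 in group R, from 25.5 to 53.2 in group B and from 28.7 to 66.3 in group C. The log2 fold changes were -0.17 for beef tallow against rapeseed oil (95% interval -0.65 to 0.31), -0.04 for coconut oil against rapeseed oil (95% interval -0.53 to 0.46) and 0.15 for coconut oil against beef tallow (95% interval -0.41 to 0.71). Without pig 3 of group B the first of these was -0.37 (edgeR adjusted p = 0.389) and the third 0.34.

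GLUD1 (ENSSSCG00000010368; chromosome 14 from 87968850 to 88005375), glutamate dehydrogenase, converts glutamate to 2-oxoglutarate and ammonia in a reaction that also runs in reverse. It was at 547, 544, 507, 490 and 560 normalized counts in group R and at 303, 285, 242, 439 and 242 in group B. The lowest, median and highest values in group C were 269, 418 and 572. Group R was narrow, and all 5 pigs of group B lay below it, with pig 4 the nearest. Group C ran from the level of group B to that of group R, with 5 of its 6 pigs below the lowest pig of group R and pig 4 above the highest. Mean GLUD1 was 529 ± 29.3 with rapeseed oil (SD, n = 5), 302 ± 81.0 with beef tallow (n = 5) and 409 ± 119 with coconut oil (n = 6).

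The log2 fold change of GLUD1 for beef tallow against rapeseed oil was -0.81 (SE 0.18, 95% interval -1.19 to -0.43, edgeR adjusted p = 0.0426, DESeq2 adjusted p = 0.00131). Coconut oil against rapeseed oil gave -0.38 (SE 0.18, edgeR adjusted p = 0.377) and coconut oil against beef tallow 0.44 (SE 0.22, 95% interval -0.03 to 0.90, edgeR adjusted p = 0.46). The edgeR call was close to the threshold. It was lost when pig 1, 2, 3, 4 or 5 of group R was left out (adjusted p = 0.102, 0.0903, 0.104, 0.054 and 0.0994 in that order) and when pig 1, 2 or 5 of group B was left out (0.0795, 0.0961 and 0.108), with log2 fold changes from -0.98 to -0.74 over the 10 fits.

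**Figure D2:**
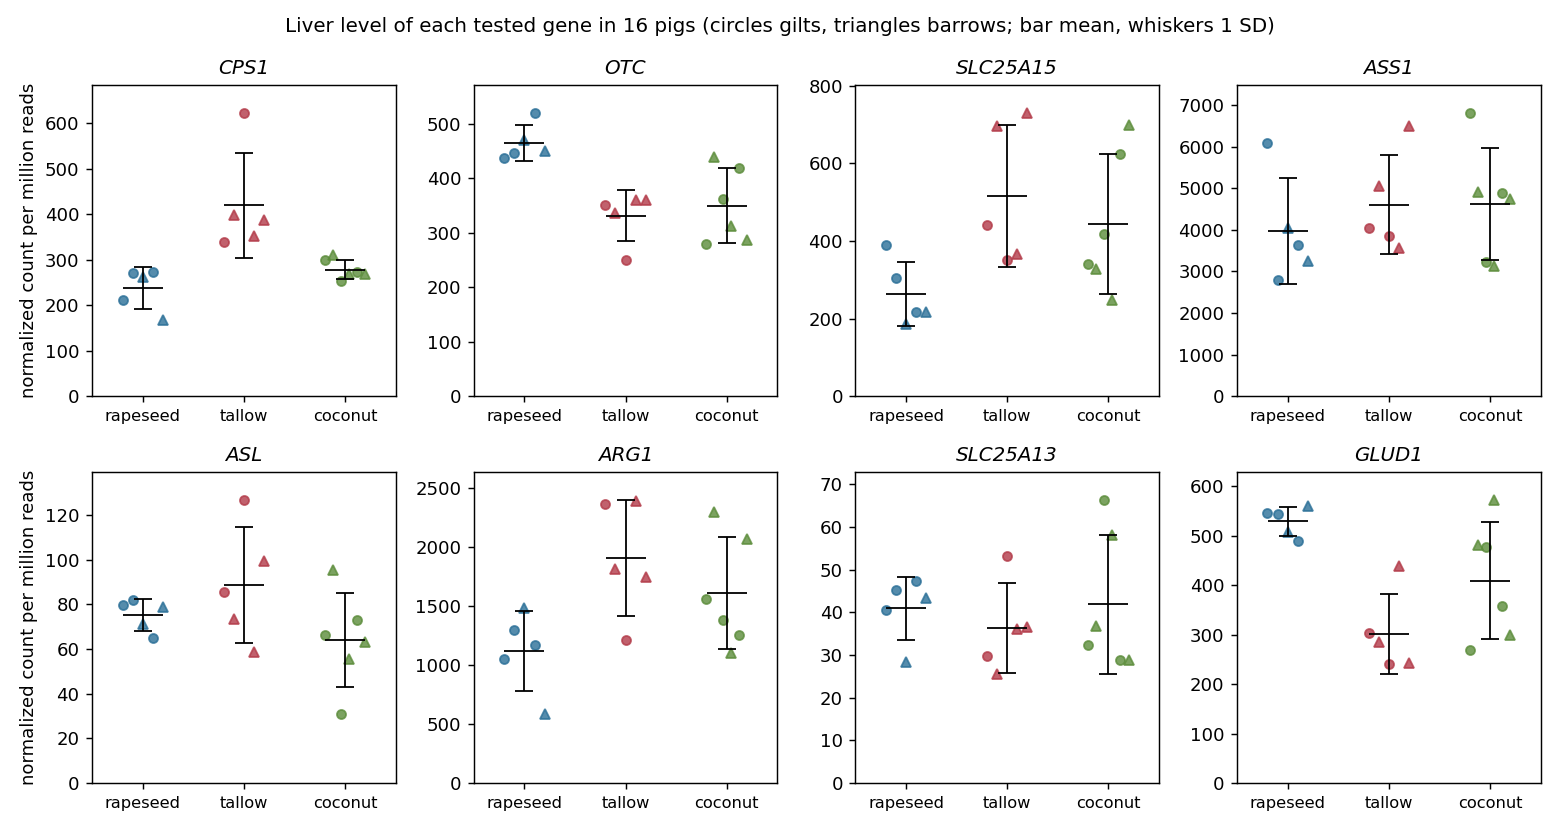
Normalized counts (CPM; vertical axes, from 0, a separate scale for each gene) of the 8 tested genes in each of 16 pigs by added fat, with circles for gilts and triangles for barrows; horizontal bars are means and whiskers 1 SD. For CPS1 the 5 beef tallow pigs sit at 339 or more, above all rapeseed oil pigs, and for GLUD1 they sit at 439 or less, below all rapeseed oil pigs.

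CPS1 and GLUD1 were also set against each other within each pig, which does not depend on the normalization between libraries. The number of CPS1 reads per GLUD1 read was 0.388, 0.498, 0.515, 0.557 and 0.299 in group R and 1.12, 1.39, 2.57, 0.804 and 1.60 in group B. In group C the lowest, median and highest ratios were 0.467, 0.700 and 1.12. Groups R and B cannot overlap in this ratio, since they overlap in neither gene, so it restates the values above and adds no support to them; group C overlapped both. The size of the ratio itself also depends on how the ends of both genes are annotated, so only its differences between pigs are read here.

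Within the diets the opposite position of both genes was weaker. After the mean of each diet was removed from the log2 normalized counts, CPS1 and GLUD1 had a Pearson r of -0.35 (permutation p = 0.144, 100000 permutations within diets, two-sided) and a Spearman rho of -0.45 (permutation p = 0.0428) over the 16 pigs. No other correlation across pigs was tested. Without the 2 pigs farthest from the median of CPS1, pig 3 of group B and pig 5 of group R, r was -0.29 over 14 pigs. The rank measure was thus below 0.05 and Pearson's r was not, and the relation between individual pigs within diets is weak in these data.

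**Figure D3:**
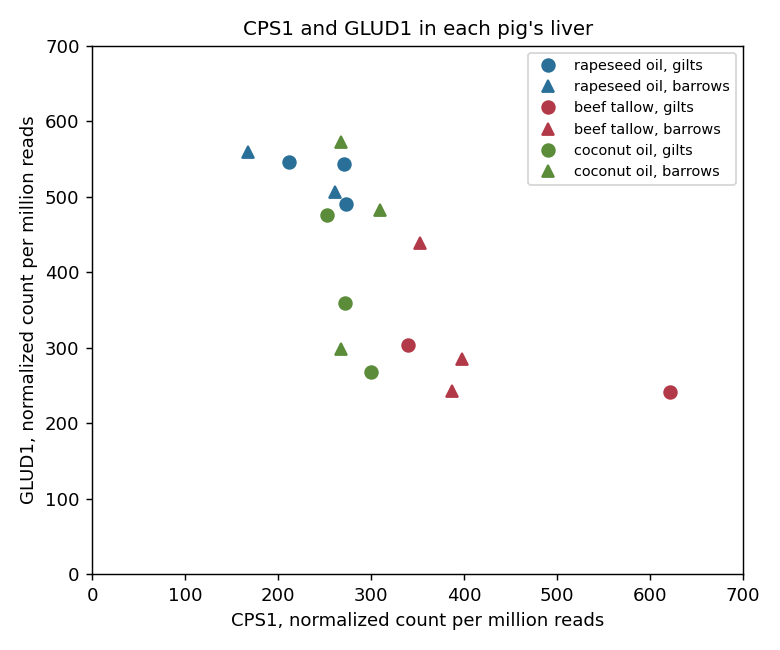
GLUD1 against CPS1 in each of 16 pigs, both in normalized counts (CPM) on axes from 0, with color for the added fat, circles for gilts and triangles for barrows. Beef tallow pigs lie at 339 or more for CPS1 and 439 or less for GLUD1, and rapeseed oil pigs at 273 or less for CPS1 and 490 or more for GLUD1.

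NAGS (ENSSSCG00000024179; chromosome 12 from 19170398 to 19173968) was listed at 0 reads in all 16 pigs. A count of 0 allows up to 3 reads per library, or 1.69 to 4.63 normalized counts depending on the pig, for counting error only. GLS2 (ENSSSCG00000000401; chromosome 5 from 21806405 to 21820001), the glutaminase of liver, had at most 3 reads in any pig, with totals of 1 read for rapeseed oil, 11 for beef tallow and 5 for coconut oil. The reads of GLS2 were 1, 0, 0, 0 and 0 in the pigs of group R and 3, 0, 3, 3 and 2 in those of group B. Both genes were removed by the filter on low counts, so neither was tested here and no fold change is given. Such low counts cannot be read as absence of the transcript in these files. SERPINA1, among the most highly expressed genes of liver, was itself at 0 to 3 reads per pig. It belongs to the hepatocyte list above and was looked up after the zeros were seen.

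The members also differed in how much they varied between pigs of the same diet. The coefficient of variation of GLUD1 was 5.54% with rapeseed oil, 26.8% with beef tallow and 29.1% with coconut oil, and that of CPS1 19.5%, 27.5% and 7.81%. OTC varied by 7.13%, 14.1% and 19.6% in the same order. SLC25A15 was the most variable of the 5 members with an unadjusted p below 0.05 for beef tallow against rapeseed oil, at 31.6%, 35.4% and 40.6%. For comparison, the median over genes with a mean of at least 100 reads in the group was 17.1%, 22.2% and 18.9%. These spreads were not tested against each other.

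Gilts and barrows were compared over all 16 pigs with diet as a covariate, a test chosen after the data were seen because OTC is X-linked. OTC had 383 ± 90.0 normalized counts in gilts (SD, n = 8) and 376 ± 68.0 in barrows (n = 8). With diet in the fit, barrows against gilts gave 0.04 on the log2 scale (95% interval -0.23 to 0.31), of the other sign than the plain means, and both differences are near 0. By edgeR 0 of 8 members passed, as did 0 at an unadjusted p below 0.05 and 0 by DESeq2. Over all genes the shares were 0.0786%, 4.9% and 0.0695%. The interaction of diet and sex gave 0 calls over all genes in each pair of diets by edgeR (0% of 6318, 6528 and 6812 genes), and 3.96%, 3.98% and 3.52% of genes had an unadjusted p below 0.05. SLC25A15 was the 1 member among these, for beef tallow against rapeseed oil (1.19 higher in barrows on the log2 scale, SE 0.47, edgeR adjusted p = 0.999).

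The genes whose levels over the 16 pigs were most like those of CPS1 by Pearson correlation, among 6048 other genes with a symbol, were CDV3 (0.88), RSL1D1 (0.87), YWHAB (0.86), IPO9 (0.85) and RPL7L1 (0.84). Those most like GLUD1 were AK3 (0.90), the adenylate kinase of the mitochondrial matrix, ACBD5 (0.86), TTC39C (0.85), AMN1 (0.84) and RIDA (0.84), an imine deaminase that releases ammonia. None of the members is among these 10. The coefficients describe these pigs, which share diets and library depths, and carry no test.

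For each list below, the shares over all genes to set beside its counts are those given above for the members. Enzymes that feed nitrogen into the cycle from amino acids formed a list of 17 genes, of which 13 were tested for beef tallow against rapeseed oil, and 1 was called by edgeR. The gene called was HAL, histidine ammonia-lyase, with means of 63.9 ± 31.2 (SD, n = 5) for rapeseed oil and 169 ± 42.9 (n = 5) for beef tallow. HAL rose by 1.39 on the log2 scale (SE 0.29, edgeR adjusted p = 0.0305). It was called in 3 of 10 leave-one-out fits, and its log2 fold change ran from 1.22 to 1.72 over all 10. In group C it was at 70.9 ± 25.4 (n = 6), with every pig below every pig of group B at -1.23 on the log2 scale (SE 0.25, edgeR adjusted p = 0.0668, DESeq2 adjusted p = 0.000783). SDS, serine dehydratase, which frees ammonia from serine, was at 221 ± 191, 585 ± 158 and 311 ± 189 in groups R, B and C (edgeR adjusted p = 0.214 for beef tallow against rapeseed oil). TDO2, the first enzyme of tryptophan breakdown, was at 886 ± 151, 871 ± 241 and 703 ± 118. HAL and SDS thus had the same order of the 3 diets as CPS1. The median log2 fold change of the list was 0.01 for beef tallow against rapeseed oil, 0.03 for coconut oil against rapeseed oil and -0.12 for coconut oil against beef tallow, where 14 genes were tested; 0 were called by edgeR in the comparisons with group C, with 1 and 2 at an unadjusted p below 0.05 and 0 and 1 called by DESeq2.

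Genes that use arginine and ornithine gave 5 tested genes of 11 in each comparison, with 0 called by edgeR or DESeq2 and 0, 2 and 0 at an unadjusted p below 0.05 for beef tallow against rapeseed oil, coconut oil against rapeseed oil and coconut oil against beef tallow. The 2 were AGMAT, agmatinase, with every pig of group C (334 ± 43.5) above every pig of group R (258 ± 7.17), and OAT, ornithine aminotransferase (195 ± 80.7 in group C and 123 ± 31.1 in group R). ODC1, which makes putrescine from ornithine, was at 114, 114 and 93.3 normalized counts in groups R, B and C. Among 18 carriers of nitrogen compounds, 6 or 7 were tested and 0 called by edgeR in each comparison, with 1, 0 and 1 at an unadjusted p below 0.05 and 1, 0 and 0 called by DESeq2. SLC7A2, a carrier of arginine and other cationic amino acids, was the one in each case, at 670 ± 336, 1341 ± 263 and 948 ± 267 in groups R, B and C (log2 fold change 1.00, edgeR adjusted p = 0.123 for beef tallow against rapeseed oil). SLC38A2 was at 457, 678 and 576, and SLC1A2 at 4.84, 18.4 and 9.33.

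The urea cycle is known to be strongest near the portal vein, so genes of both ends of the liver lobule were listed as well. Of 10 tested periportal genes other than the members, 1 was called by edgeR for beef tallow against rapeseed oil, again HAL, and 0 in the other comparisons (1 and 2 at an unadjusted p below 0.05, 0 and 1 by DESeq2). FBP1, an enzyme of glucose synthesis, was at 682 ± 125, 986 ± 203 and 889 ± 201 in groups R, B and C (edgeR adjusted p = 0.181 for beef tallow against rapeseed oil). Of 11 listed perivenous genes 10 were matched by symbol. GLUL, glutamine synthetase, was not matched, so it was not examined. Of 6 or 7 tested perivenous genes 0 were called by edgeR or DESeq2 in the 3 comparisons, with 0, 2 and 0 at an unadjusted p below 0.05. The 2 were OAT, which coconut oil had at a higher level, and LECT2, at 652, 562 and 520 normalized counts in groups R, B and C. The median log2 fold change for beef tallow against rapeseed oil was 0.14 over the periportal and -0.16 over the perivenous genes, beside 0.01 over all genes tested. The periportal genes were evenly split, with 5 positive and 5 negative values, and the perivenous genes had 2 positive and 4 negative. HAL and SDS are on both the periportal and the nitrogen list. A shift between the ends of the lobule was not tested.

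Among 12 tested regulators, edgeR called 0 in each comparison, while 6, 2 and 0 had an unadjusted p below 0.05 and DESeq2 called 0, 1 and 0. Over all genes the unadjusted shares by edgeR were 15%, 13% and 11.5%. SIRT4, a mitochondrial sirtuin known to inhibit GLUD1, was at 24.7 ± 7.08, 9.34 ± 6.39 and 17.3 ± 5.13 in groups R, B and C, the same order of the diets as GLUD1 (edgeR adjusted p = 0.169 for beef tallow against rapeseed oil). SIRT4 had only 0 to 23 reads per pig in group B, so its order rests on low counts. SIRT3, which deacetylates mitochondrial enzymes including OTC and GLUD1, was at 45.5 ± 9.65, 26.9 ± 13.4 and 26.4 ± 6.51, with every pig of group C below every pig of group R (edgeR adjusted p = 0.114, DESeq2 adjusted p = 0.036). PPARGC1A, a coactivator of the fasting response, was at 78.4 ± 10.03, 117 ± 36.1 and 120 ± 47.4.

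Single markers of other liver cell types also differed between groups R and B: edgeR called 1 of 7 tested Kupffer cell genes and 1 of 4 tested sinusoidal endothelial genes, both higher in group B. Over all genes tested in that comparison edgeR called 1.11%. The 8 Kupffer cell genes summed to 1025, 1147, 1030, 753 and 614 normalized counts in group R and to 1161, 848, 1698, 870 and 994 in group B, and to a lowest, median and highest value of 614, 674 and 886 in group C, so the sums of groups R and B overlapped. CD163 was the Kupffer cell gene called for beef tallow against rapeseed oil, rising from 110 ± 18.4 in group R to 190 ± 22.7 in group B (log2 fold change 0.79, edgeR adjusted p = 0.0414, called in 2 of 10 leave-one-out fits), and it was at 136 ± 25.0 in group C. C1QA, the most abundant of them, was at 541 ± 138, 599 ± 219 and 346 ± 69.6 in groups R, B and C, and CD68 at 36.8, 40.98 and 27.2. For beef tallow against rapeseed oil, 6 of the 7 tested had a positive log2 fold change and 1 a negative one. The negative one was MARCO, at 29.0 in group R and 19.8 in group B (log2 fold change -0.55, edgeR adjusted p = 0.424). For coconut oil against beef tallow, 4 of the 7 were lower at an unadjusted p below 0.05 (11.5% of all genes passed it), 0 by edgeR's adjusted p and 1 by DESeq2. For coconut oil against rapeseed oil edgeR called 0, with 1 at an unadjusted p below 0.05 and 1 called by DESeq2, both C1QA. No Kupffer cell gene was at 0 in every pig. Their part in the differences of CPS1 and GLUD1 was not tested.

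Of the sinusoidal endothelial genes 4 were tested, and LYVE1 rose from 33.2 ± 6.13 in group R to 61.1 ± 11.5 in group B (log2 fold change 0.88, edgeR adjusted p = 0.0495, called in 2 of 10 leave-one-out fits). It was about as high in group C, at 60.0 ± 18.3, with every pig of group C above every pig of group R (0.86 on the log2 scale, edgeR adjusted p = 0.104, DESeq2 adjusted p = 0.0216). The 5 matched genes of that list summed to 275 to 437 normalized counts in group R, 364 to 456 in group B and 333 to 412 in group C. Its most abundant gene CLEC4G was at 157, 209 and 160 and KDR, which lay in the other direction from LYVE1, at 76.3, 53.6 and 58.4. Of 8 tested hepatocyte genes 1 was called for beef tallow against rapeseed oil: TTR, transthyretin, fell from 6523 ± 949 to 3791 ± 621 (log2 fold change -0.78, edgeR adjusted p = 0.0426, called in 2 of 10 leave-one-out fits), and it was at 5515 ± 1130 in group C. TTR, a blood carrier of thyroid hormone and retinol, thus had the same order of the diets as GLUD1. ALB was at 92047 ± 18593, 75514 ± 32954 and 97190 ± 29905, TF at 21862, 20467 and 16867 and HNF4A at 350, 497 and 432. In the comparisons of coconut oil with rapeseed oil and with beef tallow, edgeR called 0 sinusoidal endothelial genes (2 and 1 at an unadjusted p below 0.05, 1 and 0 by DESeq2) and 0 hepatocyte genes (1 and 1, and 0 and 1 by DESeq2). The part of these cell types in the results was not tested.

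The other marker lists gave 0 calls by edgeR in the 3 comparisons. DESeq2 called 1 of their genes, the pericyte gene RGS5, which the edgeR filter on low counts removed; it was at 22.9 ± 14.6 normalized counts in group R and 4.06 ± 4.35 in group B (DESeq2 adjusted p = 0.00693), and it is named after its values were seen. Stellate and mesenchymal genes had 6 tested, with 2, 1 and 0 at an unadjusted p below 0.05 and COL3A1 the most abundant at 243, 209 and 206 in groups R, B and C; ACTA2 had medians of 18.7, 32.1 and 28.0, with pig 4 of group B at 131, LRAT was at 20.8, 12.2 and 15.2 and COL1A2 at 119, 83.5 and 115. Of the lymphocyte genes 2 were tested, JCHAIN at 31.4, 22.8 and 13.1 and CD2 at 18.0, 16.2 and 16.4, with 1 at an unadjusted p below 0.05 for coconut oil against rapeseed oil. Of the erythroid genes 3 were tested with 0 at an unadjusted p below 0.05, and HBB was at 2178, 2176 and 2980, ALAS2 at 32.7, 33.7 and 35.3 and AHSP at 16.7, 15.7 and 15.7, with pig 5 of group R at 44.3. Cholangiocyte genes were too low to test, with SPP1 the most abundant at no more than 27.1 normalized counts in any pig.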

How the data were processed

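RNA was isolated from liver, and libraries were made with a 3′ mRNA kit that reads forward from transcript ends. Per the labels, the authors used FastQC, TopHat, HTSeq and DESeq2, and the deposited values are raw read counts per gene. The 5 tallies of reads on no gene were left out of library sizes. Whether counting used strand is not given in the sources used here, and RefSeq spans of OTC, ASL, SLC25A15 and GLS2 overlap other genes. Symbols matched 14857 listed gene identifiers, and coordinates are from RefSeq on Sscrofa11.1, matched by symbol.

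Each pair of diets was fitted alone with edgeR 4.0.16 (R 4.3.3; quasi-likelihood F test, TMM, filterByExpr with minimum count 10 and total 15), with Benjamini-Hochberg adjustment over all genes tested and a threshold of 0.05. Scripts were tested on simulated data. No libraries were identical. Alternatives were DESeq2 1.42.0, RLE normalization, other filters, 1 fit of all pigs, sex as a covariate, a replicate block and leaving out each pig. The members and lists were chosen with earlier results of these data known. Named list genes passed an edgeR adjusted p of 0.05 in any comparison, had the 3 smallest p-values of their list, or were a marker list's most abundant gene.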

Additional observations from a re-analysis of the deposited data

Results flagged for a closer look

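In the 24 groups formed by 8 tested members and 3 diets, the gap of the highest or lowest pig to its nearest neighbour was large for 2. As a part of the range of its group the gap was 0.79 for each of the 2, above a cutoff of 0.71. Chance passes that cutoff in about 1 in 20 groups, so 2 of 24 is near that share. Both concern pig 3 of group B, so they come from 1 library and are not separate observations. CPS1 was at 622 normalized counts there, and at 339 to 398 in the other 4 pigs of that group. OTC was at 249 there, and at 336 to 359 in the other 4. The same pig therefore had the highest CPS1 and the lowest OTC of all 16 pigs, and also the lowest ALB, at 27364 normalized counts.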

How the results depend on the processing

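The direction of CPS1 and GLUD1 was kept in each comparison under each alternative run. For beef tallow against rapeseed oil (main 1 member and 70 genes called), DESeq2 called 4 members and 188 genes, no filter on low counts 3 and 190, and the replicate block 0 and 35. CPS1 passed the threshold by DESeq2 (0.83), without a filter (0.82) and with all 16 pigs in 1 fit (0.83), at adjusted p-values of 0.00913 to 0.0813 over the alternatives that kept every pig. GLUD1 missed it with all 16 pigs in 1 fit (-0.81, adjusted p = 0.051) and with the replicate block (-0.84, adjusted p = 0.0813), and passed with sex as a covariate (adjusted p = 0.0498). The cause was not tested. For coconut oil against rapeseed oil (main 9 genes), DESeq2 called 93, no filter 82 and at least 10 reads in every pig 14. For coconut oil against beef tallow (main 4 genes), DESeq2 called 53 genes and 1 member, CPS1 (-0.60, adjusted p = 0.0375), no filter 22 and all 16 pigs in 1 fit 8.

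Leaving out each pig gave 9 to 149, 3 to 27 and 4 to 9 genes called in the 3 comparisons, the 9 without pig 5 of group R and the 149 without pig 3 of group B. For beef tallow against rapeseed oil it gave 0 to 3 members called, and GLUD1 from -0.98 to -0.74. Values near 0 changed sign. SLC25A13 was at 0.027 for coconut oil against rapeseed oil with the replicate block and ran from -0.19 to 0.063 when each pig was left out, and from -0.014 to 0.34 for coconut oil against beef tallow. In the latter comparison ASS1 was at -0.0050 with at least 10 reads in every pig and -0.034 with the replicate block, from -0.14 to 0.16 when each pig was left out, and OTC from -0.0066 to 0.14. OTC in barrows against gilts ran from -0.030 to 0.10.

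Same-numbered pigs of different diets share only a number: their deviations from the diet means correlated at -0.21 to 0.13, and 1, 3 and 3 of 10 pigs in the 3 comparisons correlated best with the pig of their own number, so the replicate block stands for no known pairing. Among the members, low counts limit ASL, SLC25A13, NAGS and GLS2.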
